A study of Mus musculus with 6 samples.

Results

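The genes described here are 35 genes of protein folding and quality control in the endoplasmic reticulum (ER), chosen by symbol from a fixed list, out of 22869 genes with a symbol in the deposited table. They are 11 chaperones and their helpers, 6 enzymes of disulfide bond formation, 11 stress sensors and transcription factors, and 7 genes of ER-associated degradation. All 35 had a row, and 5 symbols had several transcript rows, of which the row with the highest mean was used. The values come from RNA sequencing of mouse pituitary cells sorted by flow cytometry into somatotropes, which make growth hormone, and lactotropes, which make prolactin. Both groups were from untreated female mice of a CD1 x C57BL/6 hybrid background, 6 to 8 weeks of age, and each held 3 libraries titled as biological replicates. The sources used here name neither the sorting marker nor the number of animals in a replicate, and the p-values below rest only on the spread among these libraries. Values are FPKM, which count fragments relative to transcript length and to all mapped fragments of a library, and levels are set side by side between genes on that basis. The RNA was amplified and the assignment of fragments to transcripts is not described. The part of either in the order of genes was not tested.

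Secreted proteins such as growth hormone and prolactin fold inside the ER, where chaperones hold the unfolded chain and disulfide isomerases form and rearrange its bonds. When unfolded chains build up, the membrane sensors IRE1 (Ern1), PERK (Eif2ak3) and ATF6 start the unfolded protein response, in which the factors XBP1, ATF4 and cleaved ATF6 raise the transcription of chaperones and degradation genes. Chains that do not fold are drawn back into the cytosol by the HRD1 complex (Syvn1, Sel1l, Derlins) and degraded. Hormone-secreting cells carry a large ER, and the response is a normal part of their secretory work.

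The promoter sequences are shown first because they were searched for the elements that ATF6 and XBP1 are known to bind. RefSeq promoter windows (GRCm38.p6, 250 bases before to 50 after the start site) were found for 30 of the 35 genes. The ER stress element ERSE (CCAAT, any 9 bases, then CCACG) was searched on both strands and lay in the windows of 10 of 30 members (33.3%), against 0.137% of 27025 genes with a window. ERSE-II (ATTGG, any base, then CCACG) lay in 2 of 30 members (6.67%) and 0.0444% of all genes. The unfolded protein response element UPRE (TGACGTGG) lay in 0 of 30 members and 0.714% of all genes, and the ATF4 motif CARE (TGATGCAA) in 1 of 30, Herpud1, and 1.03% of all genes. In these 30 genes no match of one motif overlapped a match of another. The ERSE was found for Hspa5, Hsp90b1, Calr, Canx, Dnajc3, Creld2, Pdia6, Ero1lb, Syvn1 and Derl3, and the ERSE-II for Herpud1 and Dnajb11. The members were picked as genes of this pathway and are themselves among the 27025 genes, so these shares are a description and not a test. A match is a description of the letters and was not measured as a binding site. The 250 bases before the start site of 6 genes follow, 5′ to 3′ on the strand of the gene, with the ERSE or ERSE-II in capitals. Hspa5, Hsp90b1 and Calr are abundant chaperones with the element, Creld2 had a positive difference in every pair below, Derl3 ranged most between libraries, and Herpud1 carries the ERSE-II.
Hspa5 (chr2:34771840-34772089, plus strand): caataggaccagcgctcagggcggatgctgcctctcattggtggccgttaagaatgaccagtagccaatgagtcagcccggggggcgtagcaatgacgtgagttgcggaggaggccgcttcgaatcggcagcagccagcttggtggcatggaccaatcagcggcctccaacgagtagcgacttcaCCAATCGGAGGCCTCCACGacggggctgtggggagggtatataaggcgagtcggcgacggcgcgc
Hsp90b1 (chr10:86705445-86705694, minus strand): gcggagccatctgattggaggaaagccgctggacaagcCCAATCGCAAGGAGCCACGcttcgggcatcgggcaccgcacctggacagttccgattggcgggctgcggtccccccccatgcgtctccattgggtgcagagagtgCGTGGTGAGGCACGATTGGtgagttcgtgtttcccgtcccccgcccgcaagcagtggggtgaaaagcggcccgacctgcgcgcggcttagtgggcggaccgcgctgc
Calr (chr8:84846932-84847181, minus strand): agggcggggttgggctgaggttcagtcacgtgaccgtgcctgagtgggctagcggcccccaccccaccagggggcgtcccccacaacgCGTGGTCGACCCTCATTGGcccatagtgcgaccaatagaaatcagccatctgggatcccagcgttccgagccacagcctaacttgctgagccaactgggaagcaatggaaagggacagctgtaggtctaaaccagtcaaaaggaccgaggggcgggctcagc
Creld2 (chr15:88819396-88819645, plus strand): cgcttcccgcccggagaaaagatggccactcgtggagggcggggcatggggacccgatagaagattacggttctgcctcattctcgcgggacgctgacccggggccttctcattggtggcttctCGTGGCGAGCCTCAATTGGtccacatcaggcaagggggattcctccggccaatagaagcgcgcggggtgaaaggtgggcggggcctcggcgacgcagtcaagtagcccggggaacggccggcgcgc
Derl3 (chr10:75893148-75893397, plus strand): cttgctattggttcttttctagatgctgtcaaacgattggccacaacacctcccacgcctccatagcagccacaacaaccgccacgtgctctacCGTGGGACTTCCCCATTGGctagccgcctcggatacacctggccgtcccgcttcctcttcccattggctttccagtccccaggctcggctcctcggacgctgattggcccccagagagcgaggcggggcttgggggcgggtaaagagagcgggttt
Herpud1 (chr8:94386179-94386428, plus strand): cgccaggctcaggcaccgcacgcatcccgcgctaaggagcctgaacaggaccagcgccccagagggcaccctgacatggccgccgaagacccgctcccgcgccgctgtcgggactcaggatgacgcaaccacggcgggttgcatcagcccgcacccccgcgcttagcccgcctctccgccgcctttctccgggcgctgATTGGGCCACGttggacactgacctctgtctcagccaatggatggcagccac
In Hsp90b1 the element occurred at 2 places, starting 212 and 107 bases before the start site, once on each strand. Both lie within the printed stretch, as does the single match of Hspa5, which starts 65 bases before its start site. The 12 members with an ERSE or ERSE-II had a median level of 64.7 FPKM over the 6 libraries, and the 18 with a window and neither element 19.7 FPKM. These groups also differ in role. Those with an element are chaperone, disulfide and degradation genes, while most sensors and factors are among those with neither. Element and role were not told apart here.

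The libraries differed by more than cell type. Gh and Prl together made up 14.4% to 31.4% of the FPKM sum over genes in somatotropes and 15.4% to 55.7% in lactotropes, with Gh above Prl in every somatotrope library and Prl above Gh in every lactotrope library. Each type also held the hormone of the other. Gh had 84910, 19380 and 43380 FPKM in somatotropes 1 to 3 and 3954, 6856 and 7623 FPKM in lactotropes 1 to 3. Prl had 10460, 8709 and 24480 FPKM in somatotropes 1 to 3 and 195300, 25170 and 148900 FPKM in lactotropes 1 to 3. Somatotrope 3 was thus close to lactotrope 2 in Prl. In lactotrope 3, 14.9% of the tested genes stood at 0, and in the others at most 2.95%, so a 0 is given as listed. A list of 8 leukocyte markers, each above 1 FPKM in every library, summed to 275, 5699 and 2920 FPKM in somatotropes 1 to 3 and to 800, 12460 and 4398 FPKM in lactotropes 1 to 3, lowest in replicate 1 of both types. A list of 7 immediate early genes, which respond quickly to stimulation and to handling of cells, summed to 93.8, 115 and 865 FPKM in somatotropes 1 to 3 and to 292, 546 and 1389 FPKM in lactotropes 1 to 3. A list of 5 markers of other endocrine cells summed to 511, 1526 and 7583 FPKM in somatotropes 1 to 3 and to 1684, 692 and 747 FPKM in lactotropes 1 to 3. In somatotrope 3 Pomc made up 5758 FPKM of it. Of 8 plasma and B cell markers, 6 or 7 were below 1 FPKM in each library, and Igj, the antibody joining chain, had at most 1.00 FPKM. Fewer cells of a type and less RNA per cell cannot be told apart in such sorted bulk samples. The part of these other cells and signals in the results below was not tested.

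The family was abundant in both cell types. Of the 35 genes, 13 in somatotropes and 12 in lactotropes had a mean level at or above the 95th percentile of the 11642 genes tested, those that averaged 1 FPKM or more across the 6 libraries. All 35 passed this filter, and all 35 also reached it within each cell type. Hspa5, which encodes the chaperone BiP, was the most abundant in each type, followed by the isomerase gene Pdia3, and the next 4 by mean level were Hsp90b1, P4hb, Pdia6 and Xbp1 in both. The order of the 35 levels was similar in all libraries, with Spearman's rho over genes between 0.79 and 0.962 for the 15 pairs of libraries, which is a description, since the genes share each library's depth and scale. Together the 35 genes held 1.78%, 0.730% and 0.609% of the FPKM sum of somatotropes 1 to 3, and for lactotropes 1 to 3 the shares were 0.949%, 0.578% and 0.455%.

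**Figure D1:**
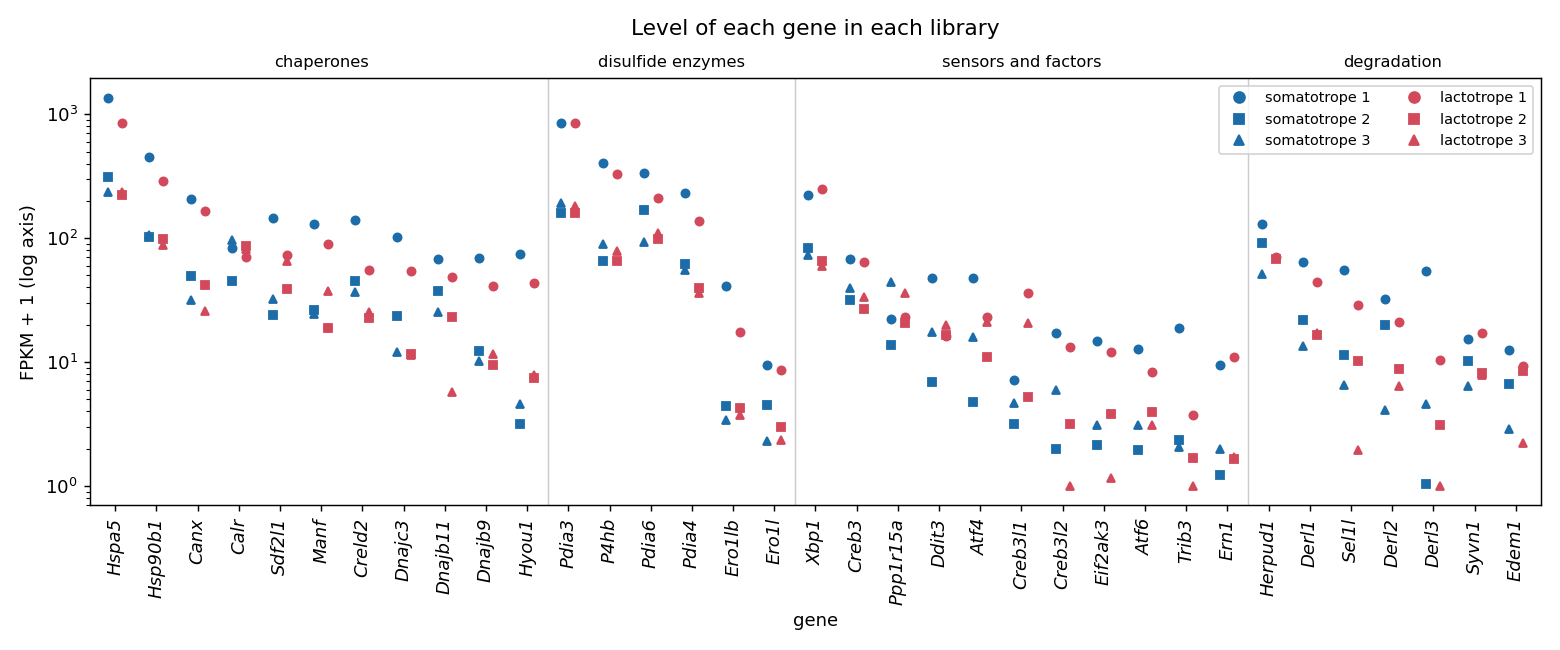
FPKM + 1 on a log axis for each of the 35 genes, grouped by role and ordered by mean level, with somatotropes in blue and lactotropes in red and the shape of the point giving the replicate number. Replicate 1 (circles) is the highest symbol of both types for most genes, while Calr and Ppp1r15a have no such gap.

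The comparison of the 2 cell types asked which genes of ER folding and quality control differ between growth hormone and prolactin cells. None of the 35 genes passed the test across all genes, and no other gene did. This included Gh and Prl, each higher in its own cell type in every pair, so 0 calls do not show equal levels. On the log2(FPKM + 1) scale, on which the change of low genes is understated, limma with Benjamini-Hochberg adjustment over all 11642 genes called 0 of 35 members, where it called 0% of all tested genes. At an unadjusted p under 0.05 there was 1 member, Creb3l1, beside 0.962% of all tested genes. Same-numbered libraries deviated together, and with the replicate number as a block limma again called 0 members and 0 genes. With array weights it called 0 members, beside 0.0773% of all tested genes, and with these weights and the block 0, beside 0.369%. At an unadjusted p under 0.05 the block gave 5 members higher in somatotropes (Dnajb11, Creld2, Pdia4, Trib3 and Sel1l), beside 7.17% of all tested genes, and 1 higher in lactotropes (Creb3l1), beside 3.75%.

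Counted by direction, 26 of 35 members had a positive difference, somatotrope minus lactotrope, beside 64.8% of all tested genes. The median difference over members was 0.24, and over all tested genes 0.18. Scaling by median ratios took the median of all genes to 0.05, a shift of the whole table, and that of the members with it. In all 3 replicate pairs 9 members were higher in somatotropes, beside 22.9% of all tested genes, and 1 was higher in lactotropes, beside 11.2%. No member had all 3 libraries of one type above all 3 of the other, which 2.51% of all tested genes showed toward somatotropes and 1.15% toward lactotropes. After median-ratio scaling the count in all 3 pairs was 4 toward somatotropes and 3 toward lactotropes, with Creld2, Dnajb11, Pdia4 and Trib3 on one side and Creb3l1, Pdia3 and Ppp1r15a on the other, beside 16.9% and 15.6% of all tested genes. Quantile normalization gave 5 and 2 members, beside 16.6% and 16.4%. Members with fully separated libraries then numbered 2 toward somatotropes and 1 toward lactotropes under each of these scalings, beside 2.93% and 2.36% of all tested genes after median-ratio scaling and 2.99% and 2.41% after quantile normalization. The sign of the median over members rested on single libraries, at -0.39 without somatotrope 1 and -0.03 without lactotrope 3. The median over all tested genes turned as well, to -0.11 and -0.13. Over members it was 0.50 without somatotrope 2, 0.65 without somatotrope 3, 0.80 without lactotrope 1 and 0.05 without lactotrope 2. Beside these stood 0.30, 0.38, 0.59 and 0.08 over all tested genes.

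**Figure D2:**
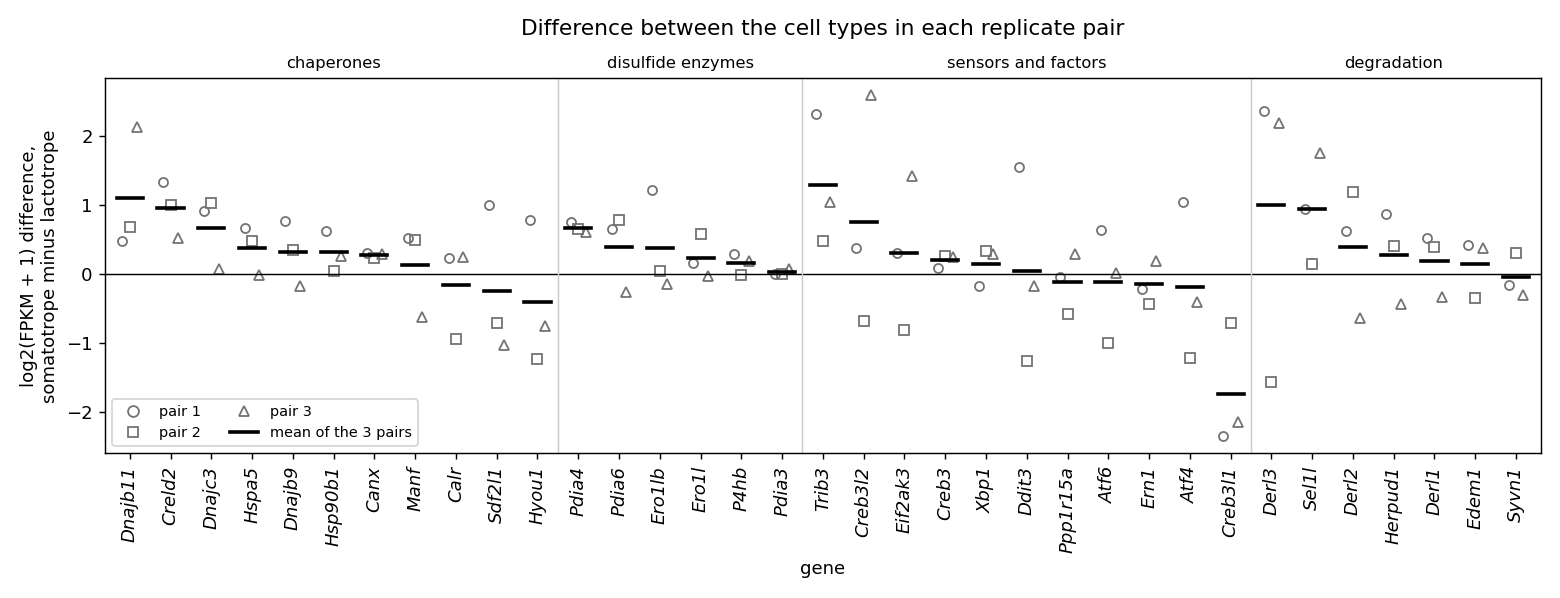
Difference in log2(FPKM + 1), somatotrope minus lactotrope, for each gene in replicate pairs 1 to 3 (open symbols), with a black bar at the mean of the 3 pairs. Creb3l1 lies below 0 in every pair, and Dnajb11, Creld2, Pdia4, Trib3 and Sel1l are among the 9 genes above 0 in every pair.

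Of the 11 chaperone genes, 8 had a positive log2 difference. Hspa5 had 1355, 312 and 234 FPKM in somatotropes 1 to 3 and 853, 224 and 236 FPKM in lactotropes 1 to 3. Both replicate 1 libraries stood far above the other 4, and the types overlapped. Its log2 difference was 0.38 (SE 0.81, adjusted p = 1), with 0.67, 0.48 and -0.01 in pairs 1 to 3. Hsp90b1, which encodes the ER form of HSP90 (GRP94), had 450, 100 and 105 FPKM in somatotropes 1 to 3 and 291, 96.8 and 87.6 FPKM in lactotropes 1 to 3, a difference of 0.31 (SE 0.72). Outside replicate 1 its 4 values lay close together.

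Of the chaperones, Dnajb11 and Creld2 were furthest toward somatotropes. Dnajb11 encodes ERdj3, a co-chaperone that hands unfolded chains to BiP, and lies on chromosome 16 from 22857918 to 22872538 in the mm9 coordinates of the table. It had 67.2, 36.2 and 24.2 FPKM in somatotropes 1 to 3 and 47.9, 22.2 and 4.76 FPKM in lactotropes 1 to 3. Each somatotrope library was above the lactotrope library of the same number, and the types overlapped. The log2 difference was 1.10 (SE 0.75, adjusted p = 1; with the block limma's adjusted p = 0.363, and 0.336 to 1 over the alternatives), and it rested most on pair 3, at 2.13 against 0.48 and 0.68 in pairs 1 and 2. Without lactotrope 3, the library with 14.9% of tested genes at 0, the Dnajb11 difference was 0.25. It was 0.71 to 1.79 without any other single library. Creld2, an ER stress-induced protein of the lumen with EGF-like domains, lies on chromosome 15 from 88650076 to 88657111. Its levels were 138, 44.4 and 35.6 FPKM in somatotropes 1 to 3 and 54.2, 21.6 and 24.4 FPKM in lactotropes 1 to 3. Lactotrope 1 was the only lactotrope library above any somatotrope library. The log2 difference was 0.95 (SE 0.64, adjusted p = 1; with the block limma's adjusted p = 0.335, and 0.131 to 1 over the alternatives), and leaving out 1 library in turn gave 0.36 to 1.36.

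Calr differed from the other abundant chaperones in its pattern over libraries. It encodes calreticulin, the lumenal lectin that binds glycoproteins and calcium, and had 82.1, 44.3 and 95.5 FPKM in somatotropes 1 to 3 and 69.8, 86.0 and 80.2 FPKM in lactotropes 1 to 3. Somatotrope 2 was the lowest library, and the other 5 lay within a narrow range. Canx encodes calnexin, the membrane-bound lectin of the same cycle, and had 206, 48.2 and 30.6 FPKM in somatotropes 1 to 3 and 166, 40.7 and 24.9 FPKM in lactotropes 1 to 3. In Canx the libraries followed the replicate number, and the differences in pairs 1 to 3 were 0.31, 0.24 and 0.29.

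The remaining 5 chaperone genes split by direction. Dnajc3, which encodes the BiP co-chaperone p58IPK, was higher in somatotropes in all 3 pairs, at 45.1 ± 49.4 FPKM (SD, n = 3), while lactotropes had 24.9 ± 25.03 FPKM, a log2 difference of 0.67 (SE 0.83). Dnajb9, encoding the BiP co-chaperone ERdj4, and Manf, encoding a secreted ER stress protein, had differences of 0.31 (SE 0.81) and 0.13 (SE 0.76), with pair 3 negative in both. Hyou1, encoding the large HSP70-like exchange factor GRP170, and Sdf2l1, a partner of ERdj3, had negative differences on the log2(FPKM + 1) scale, -0.40 (SE 1.07) and -0.24 (SE 0.69), although their mean FPKM was higher in somatotropes, 26.4 against 18.5 for Hyou1 and 66.5 against 58.3 for Sdf2l1. Hyou1 had 73.3, 2.17 and 3.62 FPKM in somatotropes 1 to 3 and 42.1, 6.40 and 6.81 FPKM in lactotropes 1 to 3. Sdf2l1 had 145, 23.0 and 31.3 FPKM in somatotropes 1 to 3 and 72.3, 38.1 and 64.6 FPKM in lactotropes 1 to 3. For both genes somatotrope 1 was the highest library while somatotropes 2 and 3 were the lowest, and pair 1 had the opposite sign to pairs 2 and 3.

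All 6 disulfide genes had a positive difference, between 0.03 and 0.67, and 1 of them, Pdia4, was positive in all 3 pairs. Pdia4 encodes the isomerase ERp72 and lies on chromosome 6 from 47746140 to 47763511. It had 231, 61.3 and 54.1 FPKM in somatotropes 1 to 3 and 136, 38.8 and 35.1 FPKM in lactotropes 1 to 3. The pair differences of 0.76, 0.65 and 0.61 were close to each other although the level changed with the replicate. The mean difference was 0.67 (SE 0.71, adjusted p = 1), and with the block limma's SE was 0.26 and adjusted p = 0.410, with 0.317 to 1 over the alternatives. The difference was 0.01 without somatotrope 1 and 0.33 to 1.29 without any other single library.

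Pdia3, which encodes ERp57, the isomerase that works with calreticulin and calnexin on glycoproteins, had nearly the same level in both types in each pair. Its values were 852, 157 and 191 FPKM in somatotropes 1 to 3 and 852, 157 and 181 FPKM in lactotropes 1 to 3, a log2 difference of 0.03 (SE 0.82, and 0.28 with the block). After median-ratio scaling the difference was -0.17. P4hb, which encodes protein disulfide isomerase itself, was close to it, with 402, 63.9 and 89.1 FPKM in somatotropes 1 to 3 and 330, 64.2 and 78.0 FPKM in lactotropes 1 to 3. Pdia6, encoding the isomerase P5, averaged 197 ± 123 FPKM over somatotropes and 139 ± 62.5 FPKM over lactotropes (SD, n = 3), with pair 3 negative. Of the oxidases that recharge the isomerases, Ero1lb averaged 15.3 ± 21.4 FPKM over somatotropes and 7.54 ± 7.85 FPKM over lactotropes, and Ero1l, the form induced by low oxygen, had 4.44 ± 3.69 and 3.63 ± 3.41 FPKM. In Ero1lb the difference lay in replicate 1, where somatotrope 1 had 40.0 and lactotrope 1 16.6 FPKM, with 2.39 to 3.42 FPKM in the other 4 libraries. The gap in level between the oxidase genes was widest there too, and in somatotrope 2 Ero1l, at 3.50 FPKM, was above Ero1lb, at 3.42 FPKM.

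The 3 sensor genes were among the least abundant of the family. Ern1 averaged 3.21 ± 4.54 FPKM over somatotropes and 3.77 ± 5.36 FPKM over lactotropes, Eif2ak3 had 5.70 ± 7.05 and 4.65 ± 5.65 FPKM, and Atf6 had 4.96 ± 5.95 and 4.08 ± 2.77 FPKM (SD, n = 3). In each sensor gene the replicate 1 libraries were the 2 highest, and pair 2 was negative. Xbp1, the target of IRE1 splicing and an activator of chaperone genes, was far more abundant than its sensor, with 220, 81.5 and 72.6 FPKM in somatotropes 1 to 3 and 248, 64.7 and 58.9 FPKM in lactotropes 1 to 3. The table gives 1 value for Xbp1, so its spliced and unspliced forms were not told apart. Its difference was 0.15 (SE 0.69), and -0.05 after median-ratio scaling.

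Of the PERK branch genes Atf4, Ddit3, Ppp1r15a and Trib3, all but Ppp1r15a were highest in somatotrope 1, like most members. Their signs over the 3 pairs were not all the same. Atf4, the factor whose translation PERK favours, had 46.4, 3.77 and 15.0 FPKM in somatotropes 1 to 3 and 22.03, 10.1 and 20.2 FPKM in lactotropes 1 to 3. Ddit3, which encodes the stress factor CHOP, had 46.7, 5.92 and 16.5 FPKM in somatotropes 1 to 3 and 15.2, 15.5 and 18.8 FPKM in lactotropes 1 to 3. In both genes somatotrope 1 was the highest and somatotrope 2 the lowest library, and pairs 1 and 2 were opposite in sign. Ppp1r15a, which encodes GADD34, the phosphatase subunit that ends the PERK signal, had 21.3, 12.7 and 43.1 FPKM in somatotropes 1 to 3 and 21.98, 19.5 and 35.1 FPKM in lactotropes 1 to 3. It was highest in replicate 3 of both types, where the immediate early genes also summed to their highest values in each type, 865 and 1389 FPKM. The part of that in the Ppp1r15a levels was not tested.

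Trib3, a pseudokinase gene induced by ATF4 and CHOP, lies on chromosome 2 from 152163161 to 152169796. It had 17.8, 1.36 and 1.07 FPKM in somatotropes 1 to 3, and 2.76, 0.694 and a listed 0 FPKM in lactotropes 1 to 3. Somatotrope 1 stood far above the other 5 libraries. The log2 difference was 1.28 (SE 0.92, adjusted p = 1; with the block limma's adjusted p = 0.376, and 0.231 to 1 over the alternatives), and it was 0.25 without somatotrope 1.

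Creb3l1 was the member furthest toward lactotropes. It encodes OASIS, an ER membrane-bound factor of the CREB3 family that is released by cleavage and is known for procollagen secretion in bone, and lies on chromosome 2 from 91822485 to 91864327. Its levels were 6.14, 2.17 and 3.66 FPKM in somatotropes 1 to 3 and 35.3, 4.17 and 19.5 FPKM in lactotropes 1 to 3. Each lactotrope library was above its somatotrope pair, 5.75-fold, 1.92-fold and 5.33-fold in pairs 1 to 3, while lactotrope 2 lay below somatotrope 1, so the types overlapped. The log2 difference was -1.73 (SE 0.77), with limma's unadjusted p = 0.0429 and adjusted p = 1. With the block the SE was 0.40 and the adjusted p = 0.235, and over all alternatives it ran from 0.116 to 1. The sign held in all 20 alternatives, with -2.53 to -1.12 when 1 library was left out, and after median-ratio scaling all 3 lactotrope libraries lay above all 3 somatotrope libraries. A list of 6 fibroblast and mural markers, cells in which this gene is known to act, summed to 28.3, 32.8 and 59.2 FPKM in somatotropes 1 to 3 and to 71.3, 23.8 and 21.7 FPKM in lactotropes 1 to 3, with 2 to 5 of the 6 below 1 FPKM. The sum was higher in lactotropes in pair 1, where Col1a2 made up 70.1 FPKM of it in lactotrope 1 and 27.4 FPKM in somatotrope 1, and lower in pairs 2 and 3. Its part in the Creb3l1 levels was not tested.

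The other CREB3 genes among the 35, Creb3 and Creb3l2, had positive differences. Creb3 had 67.3, 30.9 and 38.9 FPKM in somatotropes 1 to 3 and 63.4, 25.7 and 32.6 FPKM in lactotropes 1 to 3, a log2 difference of 0.20 (SE 0.58), with 0.08, 0.26 and 0.25 in pairs 1 to 3. Creb3l2 had 16.1, 0.976 and 4.997 FPKM in somatotropes 1 to 3 and 12.2, 2.16 and a listed 0 FPKM in lactotropes 1 to 3, a difference of 0.76 (SE 1.013) with pair 2 negative. Creb3l4, a CREB3 gene of the further list described last and named here after its values were seen, had 3.17, 3.35 and 2.91 FPKM in somatotropes 1 to 3 and 1.86, 1.57 and 2.03 FPKM in lactotropes 1 to 3, without overlap, a log2 difference of 0.56 (SE 0.67, limma's adjusted p = 1). The difference of Creb3l1 from these 3 genes was not tested.

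**Figure D3:**
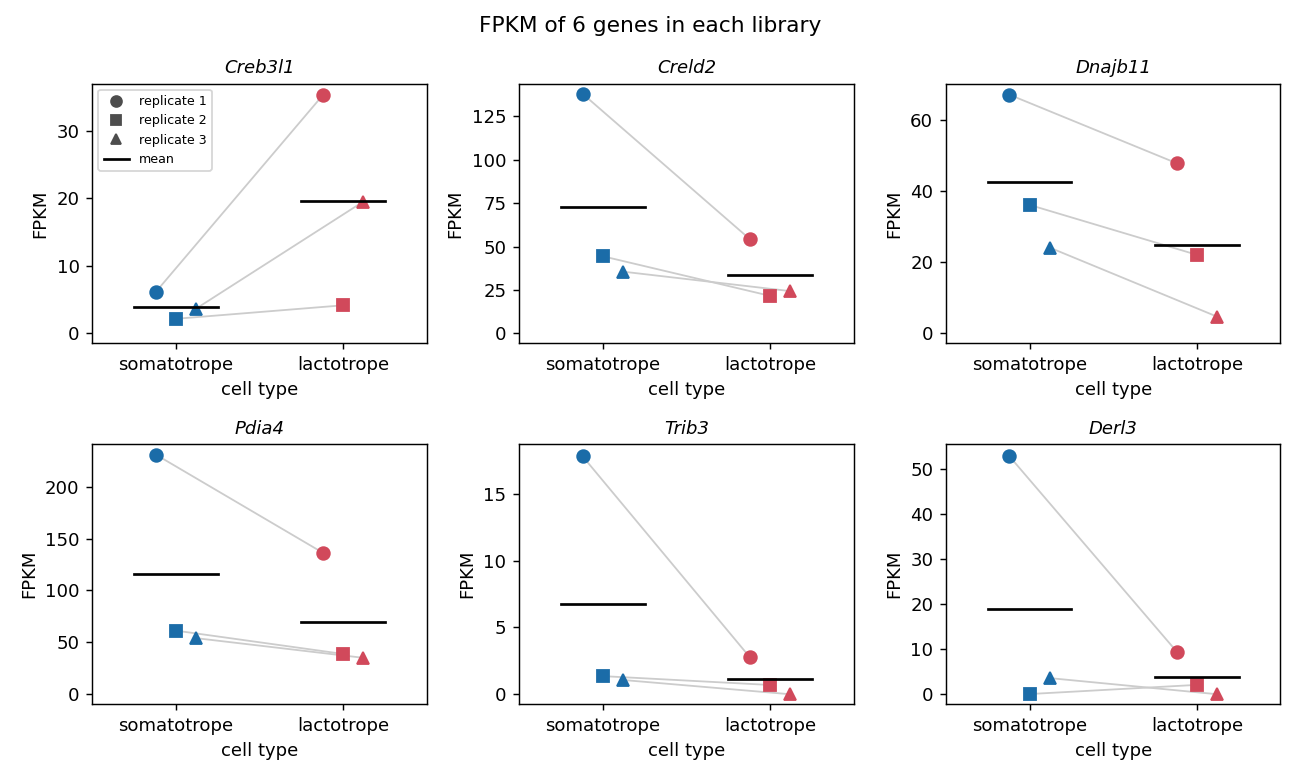
FPKM of 6 genes on a linear axis, with 1 point per library, its shape giving the replicate, grey lines joining same-numbered libraries and a black bar at the mean of 3 libraries. All 3 lines of Creb3l1 go up toward lactotropes, all 3 lines of Creld2, Dnajb11, Pdia4 and Trib3 go down, and those of Derl3 cross.

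Among the degradation genes, Sel1l and Derl3 had the largest mean differences, and neither passed the test. Sel1l encodes the adaptor of the HRD1 ligase and had 54.5, 10.3 and 5.55 FPKM in somatotropes 1 to 3 and 27.9, 9.24 and 0.950 FPKM in lactotropes 1 to 3. Lactotrope 3 was the lowest library, and pair 3 had the largest difference, at 1.75 against 0.94 and 0.14 in pairs 1 and 2. The mean difference was 0.94 (SE 0.98, adjusted p = 1; with the block limma's adjusted p = 0.424, and 0.424 to 1 over the alternatives), and it was -0.11 without lactotrope 3. Derl3, the Derlin of strongly secreting cells, lies on chromosome 10 from 75356143 to 75358686. It had 52.9, 0.0445 and 3.59 FPKM in somatotropes 1 to 3 and 9.47, 2.08 and 0.00755 FPKM in lactotropes 1 to 3. Both types ran from near 0 to their replicate 1 library, and its range over libraries, 5.74 on the log2 scale, was the widest of the 35. Plasma cells are known for high Derl3. The plasma and B cell marker sum was 31.8 FPKM in somatotrope 1 and 5.08 to 16.1 FPKM in the other libraries. In somatotrope 1 Cd79b made up 30.2 FPKM of it, and Igj was listed at 0. The part of these cells in the Derl3 levels was not tested.

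Herpud1 had the steadiest level in lactotropes. It encodes the ER membrane protein that organises the HRD1 complex, and had 128, 89.5 and 50.6 FPKM in somatotropes 1 to 3 and 69.6, 67.2 and 68.4 FPKM in lactotropes 1 to 3. The SD in lactotropes was 1.20 FPKM around a mean of 68.4, while somatotropes had 89.4 ± 38.7 FPKM (SD, n = 3). Syvn1, which encodes the HRD1 ligase, averaged 9.64 ± 4.54 FPKM over somatotropes and 10.1 ± 5.29 FPKM over lactotropes, a difference of -0.05 (SE 0.64). Derl1 had 32.1 ± 27.0 and 25.1 ± 16.0 FPKM, and Derl2 had 17.8 ± 14.1 and 11.0 ± 7.76 FPKM, with pair 3 negative in both Derlins. Edem1, which encodes a lectin that selects misfolded glycoproteins, had 6.31 ± 4.80 and 5.64 ± 3.85 FPKM and a difference of 0.15 (SE 0.81).

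The widest differences in level followed the replicate number. Somatotrope 1 was the highest library for 29 of 35 members, beside 37.5% of all tested genes, and lactotrope 1 for 4, beside 32.9%. In somatotropes the ratio of replicate 1 to the mean of replicates 2 and 3 had a median of 4.89 over members and 1.95 over all tested genes, and it was above 2 for 30 of 35 members, beside 48.4% of all tested genes. In lactotropes the medians were 3.56 and 2.46, and the ratio was above 2 for 28 of 35, beside 59.9%. Hspa5 had ratios of 4.96 and 3.71, and Hyou1 of 25.3 and 6.38. Ppp1r15a, at 0.763 and 0.804, was the only member below 1 in both types, and Calr had 1.17 and 0.840. Atf4 and Ddit3 had high ratios in somatotropes, 4.93 and 4.16, and low ones in lactotropes, 1.46 and 0.890. Over the 12 members with an ERSE or ERSE-II the median ratio was 3.91 in somatotropes and 3.36 in lactotropes, and over the 18 with neither it was 4.91 and 4.10. Several other genes moved with the replicate number. Pou1f1, the lineage factor of both cell types, had 245, 21.0 and 19.9 FPKM in somatotropes 1 to 3 and 258, 34.6 and 66.7 FPKM in lactotropes 1 to 3, highest in replicate 1 of both types. The leukocyte sum given above was lowest there. A list of 6 stem and folliculostellate markers summed to 136, 1458 and 860 FPKM in somatotropes 1 to 3 and to 70.3, 467 and 125 FPKM in lactotropes 1 to 3, lowest in replicate 1 of both types and higher in somatotropes in every pair, with 1 to 4 of the 6 below 1 FPKM and most of the sum from Mia1. A list of 3 erythroid markers summed to 15.2, 43.7 and 2147 FPKM in somatotropes 1 to 3 and to 2.95, 164 and 1769 FPKM in lactotropes 1 to 3, highest in replicate 3 of both types, with 0 to 2 of the 3 below 1 FPKM. The part of these signals in the ratios was not tested.

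**Figure D4:**
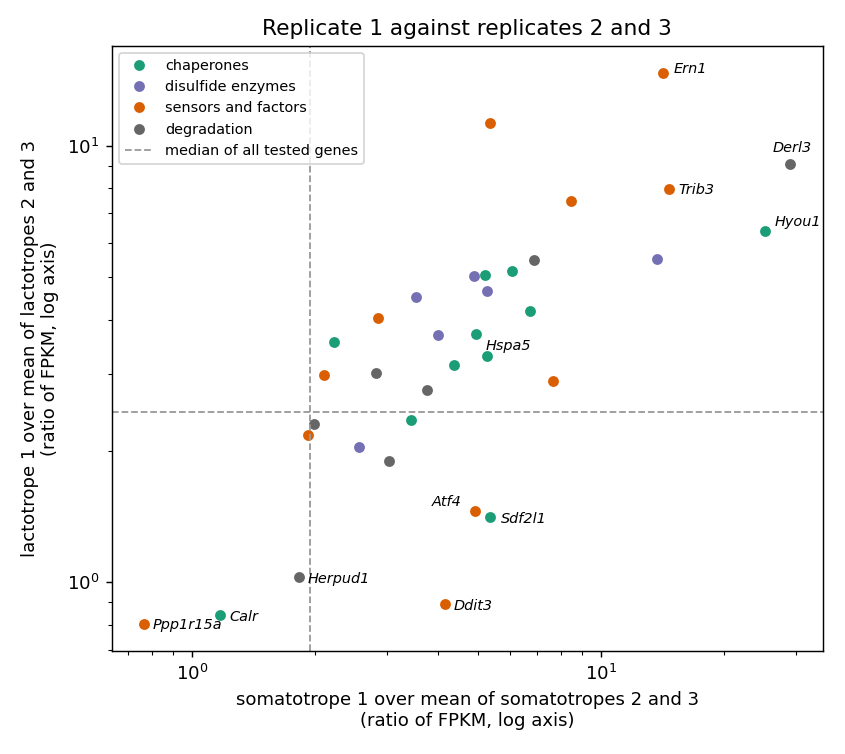
Ratio of replicate 1 to the mean of replicates 2 and 3 in somatotropes (horizontal log axis) and in lactotropes (vertical log axis) for the 35 genes, coloured by role, with dashed lines at the median of all tested genes, 1.95 and 2.46. Most genes lie above and to the right of both lines. Of the labelled genes, Ppp1r15a, Calr and Herpud1 lie at the lower left, and Ddit3, Atf4 and Sdf2l1 lie low on the vertical axis only. Some unlabelled genes also lie below a line, such as Creb3 just below both, at 1.93 and 2.18.

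The pairs differed in the same way. In pair 1 somatotropes were above lactotropes for 30 of 35 members, beside 50.3% of all tested genes. The count was 20 of 35 in pair 2, beside 56.9%, and 20 of 35 in pair 3, beside 64.9%. The median difference over members in pairs 1 to 3 was 0.63, 0.14 and 0.08, while over all tested genes it was 0.00, 0.12 and 0.36. The members thus leaned toward somatotropes in pair 1, where all genes did not, and in pair 3 they did so less than all genes. By role, the chaperone medians were 0.67, 0.35 and 0.08 in pairs 1 to 3, those of the disulfide genes 0.47, 0.32 and 0.03, those of sensors and factors 0.30, -0.68 and 0.25, and those of degradation genes 0.63, 0.31 and -0.30.

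Hormone transcripts outnumbered folding transcripts more in lactotropes than in somatotropes in every pair. The summed FPKM of Gh and Prl came to 70.4, 90.0 and 290 times that of Hspa5 in somatotropes 1 to 3, and 234, 143 and 665 times in lactotropes 1 to 3. The same sum was 33.9, 41.9 and 112 times the summed chaperones in somatotropes, and 112, 56.0 and 267 times in lactotropes. The types overlapped, since somatotrope 3 was above lactotropes 1 and 2 in both ratios. For the summed chaperones it was barely above lactotrope 1, at 112.5 against 112.1. Gh and Prl also held a larger share of the FPKM sum on the lactotrope side of each pair. Over all tested genes the median difference, somatotrope minus lactotrope, was 0.00, 0.12 and 0.36 by pair. Hormone ratios were not computed for other genes, so whether the higher ratios of lactotropes are particular to folding genes was not tested. With Gh and Prl left out of the FPKM sum, the 35 genes held 2.58%, 0.853% and 0.887% of it for somatotropes 1 to 3, and 1.81%, 0.683% and 1.03% of it for lactotropes 1 to 3, so pair 3 changed its order.

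**Figure D5:**
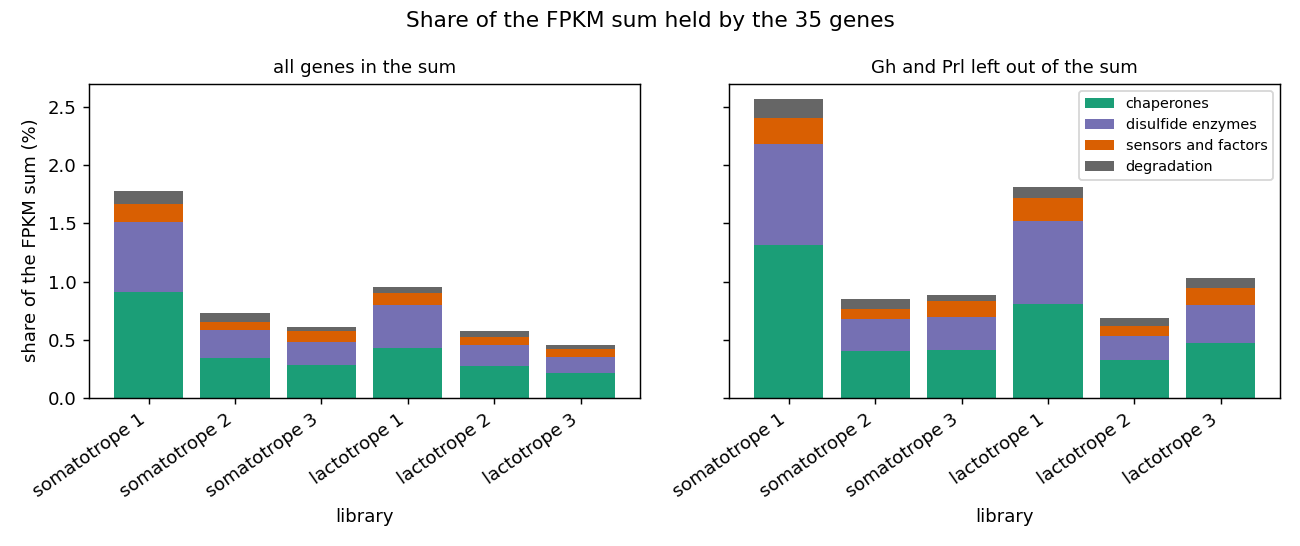
Share of the FPKM sum over genes held by the 35 genes in each library, as bars stacked by role, with all genes in the sum (left) and with Gh and Prl left out of it (right). The bar of somatotrope 1 is the highest in both, at 1.78% and 2.58%, and lactotrope 3 lies below somatotrope 3 on the left and above it on the right.

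A list of 74 further genes of the same pathways gave a similar picture. All 74 had a row, 70 passed the filter of 1 FPKM and were tested, and limma called 0 of them with or without the block. Their median difference was 0.19, near the 0.18 of all tested genes, and in all 3 pairs 18 of the 70 were higher in somatotropes, beside 22.9% of all tested genes, and 1 in lactotropes, beside 11.2%. Of the 70, 2 had all somatotrope libraries above all lactotrope libraries, beside 2.51% of all tested genes: Creb3l4 and Ppib, which encodes cyclophilin B and was also named after its values were seen, at 55.3 ± 2.47 FPKM against 43.8 ± 9.90 FPKM in lactotropes (SD, n = 3). Txndc5, a disulfide isomerase gene, had 139, 122 and 63.0 FPKM in somatotropes 1 to 3 and 115, 50.6 and 11.2 FPKM in lactotropes 1 to 3, a log2 difference of 1.31 (SE 0.75, adjusted p = 1). Its value was above that of the lactotrope library of the same number in all 3 pairs. Tmx2, a membrane-bound thioredoxin-related gene, had a difference of 0.62 (SE 0.58). The chaperone-side genes with the smallest p were Ganab, encoding a subunit of glucosidase II, at 0.66 (SE 0.65), and Fkbp11, encoding a prolyl isomerase, at -0.77 (SE 0.88). Of the degradation genes, the ubiquitin ligase gene Rnf5 had a difference of 0.65 (SE 0.54).

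Among the stress factors of that list, Nupr1 and Atf3 had limma's smallest unadjusted p and varied widely between libraries, while others, such as Creb3l4, varied little. Nupr1, a stress-induced gene downstream of ATF4, had 120, 5.35 and 3.80 FPKM in somatotropes 1 to 3 and 4.89, 7.84 and a listed 0 FPKM in lactotropes 1 to 3, a log2 difference of 2.05 (SE 1.15). Like Trib3, it stood far higher in somatotrope 1 than in any other library. Atf3, which is both a stress factor and an immediate early gene, had 1.92, 1.48 and 105 FPKM in somatotropes 1 to 3 and 7.89, 32.7 and 137 FPKM in lactotropes 1 to 3. It was higher in lactotropes in all 3 pairs, with a log2 difference of -1.92 (SE 1.27), and both replicate 3 libraries were its highest. In limma's test their adjusted p was 1, and with the block 0.397 for Nupr1 and 0.335 for Atf3, so neither was called.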

How the data were processed

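A single table of FPKM was deposited by the authors, holding 30399 transcripts by 6 libraries. The submitters' processing notes name build mm9 and the tools TopHat, edgeR and bcl2fastq (2.17.1.14), and the sources used here do not say how fragments were assigned to transcripts. RNA was amplified with a NuGen kit before library preparation, per the labels' protocols. FPKM holds no counts, so the depth behind the values is unknown and no count test was run. The 889 transcripts lacking a symbol were dropped, and the transcript of highest mean stood for its gene. The 11642 genes averaging 1 FPKM or more were tested on the log2(FPKM + 1) scale with limma 3.58.1 in R 4.3.3, using a trended variance prior. Adjusted p-values are Benjamini-Hochberg values over all these genes, called at 0.05. Libraries with equal numbers, taken from the titles, deviated together from their group means: Pearson's r over genes was 0.763 for replicate 1, 0.613 for replicate 2 and 0.341 for replicate 3. A fit blocked on that number is therefore given too. Genes, lists and roles were chosen with earlier results of these data known. All 35 genes are named, and of the further list up to 2 per role by smallest p and any that passed the test, except 1 degradation gene that is not reported here. Of these further genes 4 (Rtcb, Vimp, March6 and Fam8a1) were matched by accession, as they stand under other symbols. The code was tested on simulated data.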

Additional observations from a re-analysis of the deposited data

How the results depend on the processing

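The 0 calls among the 35 genes and the 74 further genes held under all 20 alternatives, with a smallest adjusted p for a member of 0.116. Over all genes limma called 9 with array weights, 43 with array weights and the replicate block (chosen after seeing the data), and 0 to 3 with 1 library left out, the 3 without somatotrope 1. The replicate block alone called 0 genes and changed no call. Median-ratio scaling, with or without the replicate block, gave 4 members higher in somatotropes in all 3 pairs and 3 in lactotropes, beside 16.9% and 15.6% of all tested genes, and quantile normalization 5 and 2, beside 16.6% and 16.4%. Members with fully separated libraries numbered 2 toward somatotropes and 1 toward lactotropes under both scalings, against 0 as deposited, and over all tested genes the share went from 2.51% and 1.15% to 2.93% and 2.36% with median-ratio scaling and 2.99% and 2.41% with quantile normalization. The cause was not tested.

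With 1 library left out, the median ran from -0.39 to 0.80 over all members, -0.40 to 0.97 for chaperones, -0.46 to 0.85 for disulfide genes, -0.54 to 0.57 for sensors and factors, -0.35 to 0.70 for degradation genes and -0.25 to 0.72 for the further genes. The last median was 0.32 with a pseudocount of 0.1 and -0.0053 after quantile normalization. Over all tested genes the median ran from -0.13 to 0.59 with 1 library left out. Dnajb11, Creld2, Pdia4, Trib3 and Creb3l1 kept their sign under every alternative in which they were tested, which for Trib3 leaves out the minimum mean of 5 FPKM and replicates 2 and 3 alone, and the other 30 members turned it, 11 of them on all 6 libraries, none past the test.

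Ranges with 1 library left out were -0.40 to 1.008 for Hspa5, -0.39 to 0.86 for Hsp90b1, -0.37 to 0.17 for Calr, -0.52 to 1.06 for Canx, -0.57 to 0.97 for Dnajb9, -0.20 to 1.43 for Dnajc3, -1.82 to 0.45 for Hyou1, -1.04 to 0.26 for Sdf2l1, -0.65 to 0.72 for Manf, -0.64 to 0.89 for P4hb, -0.74 to 0.80 for Pdia3, -0.076 to 0.85 for Pdia6, -0.28 to 0.80 for Ero1l and -0.76 to 1.09 for Ero1lb. They were -1.02 to 0.75 for Ern1, -0.54 to 1.143 for Eif2ak3, -0.91 to 0.45 for Atf6, -0.35 to 0.81 for Xbp1, -1.005 to 0.65 for Atf4, -0.66 to 0.73 for Ddit3, -0.56 to 0.29 for Ppp1r15a, -0.12 to 0.57 for Creb3 and -0.14 to 1.72 for Creb3l2. They were -0.022 to 0.64 for Herpud1, -0.36 to 0.32 for Syvn1, -0.11 to 1.84 for Sel1l, -0.51 to 0.70 for Edem1, -0.43 to 0.68 for Derl1, -0.22 to 1.27 for Derl2 and -0.54 to 2.30 for Derl3.

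Median-ratio scaling, with or without the replicate block, gave -0.063 for Manf, -0.042 for P4hb, -0.17 for Pdia3, -0.047 for Xbp1 and -0.17 for Ddit3. Quantile normalization gave -0.10 for Ddit3 and -0.060 for Edem1, rescaling without Gh and Prl -0.021 for Pdia3 and -0.0081 for Ddit3, and a pseudocount of 5 gave 0.018 for Atf6. Replicates 2 and 3 alone gave -0.060 for Manf, -0.048 for Ero1lb, -0.71 for Ddit3, -0.0098 for Herpud1 and 0.0050 for Syvn1. Array weights gave -0.33 for Eif2ak3, -0.55 for Ddit3, 0.0045 for Ppp1r15a, 0.086 for Syvn1, -0.56 for Edem1 and -0.27 for Derl3, and with the replicate block -0.032 for Eif2ak3 and 0.029 for Syvn1. The depth behind the values is unknown, so precision at low FPKM cannot be stated.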
